A study of Mus musculus with 15 samples.

Results

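Bone marrow of C57Bl/6 mice grown with GM-CSF yields cells that float and cells that stick to the dish, and the comparison described here set one against the other. The CD11c+ cells were purified from the non-adherent cells of a 7-day culture in 20 ng/ml GM-CSF. The adherent cells were those that stayed attached in such a culture after washing. Each fraction was measured on 1 array, chosen by its title, so the comparison uses 2 of the series' 15 arrays. On them, 34945 of 45037 probe sets carried 1 gene symbol and gave 18193 genes, each read from 1 probe set, the brightest on average across the 15 arrays.

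The other groups used below came from the same strain. The adherent cells of a 7-day bone marrow culture in 20 ng/ml M-CSF were 1 array. Monocytes purified from bone marrow were measured before (0 h) and 24 and 48 h after the start of culture in 20 ng/ml GM-CSF, on 1 array each. Bone marrow precursors of classical dendritic cells (pre-cDC) and common dendritic cell progenitors (CDP), taken from mice at steady state, had 2 arrays each. The titles of the progenitor arrays begin with WT1 or WT2, read here as wild type. The labels name no genetic change or second agent in any of these groups, and do not say how many mice or cultures stand behind an array. For the adherent cells the labels give no selection other than washing.

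GM-CSF, the granulocyte-macrophage colony-stimulating factor, drives bone marrow progenitors to granulocytes, macrophages and dendritic cells, and such cultures are known to hold a mixture of these. Dendritic cells take up antigen in tissues and, on maturation, switch on the chemokine receptor CCR7, which leads them to lymph nodes, together with ligands and cytokines that instruct T cells. Much of that switch runs through NF-kB, a family of transcription factors of which RelB and its partner p100 form the slower, non-canonical arm. Macrophages stay in place, and are known for phagocytosis, scavenger receptors and lysosomal digestion.

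The values are array intensities on a linear scale, and differences are given as log2(intensity + 32) of CD11c+ cells minus that of adherent cells, so that a difference against a dim value is understated. With 1 array a side there is no replicate and no test between the fractions. To be counted, a gene had to differ by 4-fold or more on that scale, and the brighter of its values had to exceed its array's median over all probe sets, which was 25.7 for CD11c+ cells and 24.7 for adherent cells. The means of both arrays were close, 368 and 365. Of the 18193 genes, 11646 had a higher value above that median, and of these 102 were counted as higher in CD11c+ cells (0.876%) and 30 as lower (0.258%). At 2-fold the counts were 445 higher (3.82%) and 233 lower (2.0%). These shares are of the 11646 genes, whereas list counts below are over all measured members, including any below that median. The median difference over all genes was 0.01. The series also holds progenitor groups titled CMP and GMP, with 2 arrays each, used only to describe the spread between arrays. Between the 2 arrays of a progenitor group (CMP, GMP, CDP or pre-cDC), no gene passed 4-fold in any of the 4 groups. At 2-fold 2 to 9 genes passed, although the samples of a group carry the same label. The SD of the difference was 0.453 between the culture fractions and 0.134 to 0.165 between the progenitor pairs. Those pairs come from other cells and from sorts, so they are no measure of the spread between GM-CSF cultures. Their arrays also had lower means, 168 to 186, so the added 32 shrinks their differences more.

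**Figure D1:**
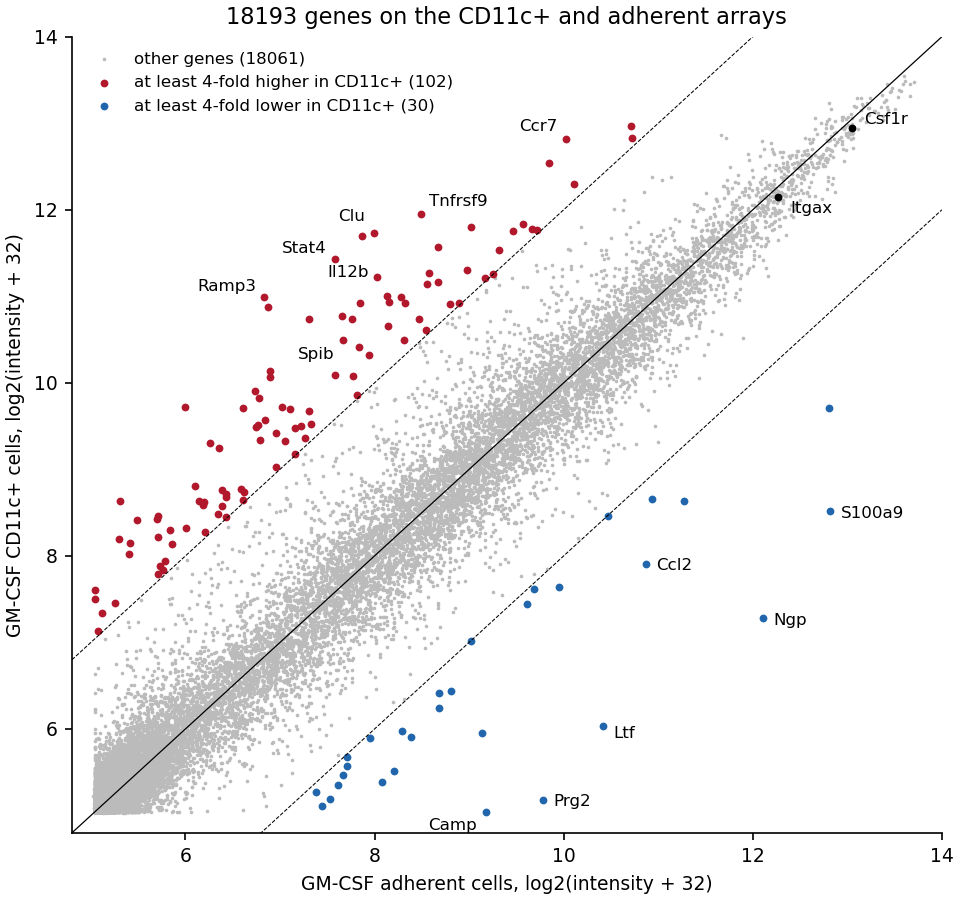
Each point is 1 of 18193 genes, with its log2(intensity + 32) in GM-CSF adherent cells on the x axis and in GM-CSF CD11c+ cells on the y axis (1 array each); the solid line marks equal values and the dashed lines a 4-fold difference. The 102 genes counted as higher lie above the upper dashed line and the 30 counted as lower below the other one, while Itgax and Csf1r sit near the solid line.

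The gene for CD11c itself, Itgax, had 4515 in CD11c+ cells, 4904 in adherent cells and 1083 in M-CSF adherent cells. The CD11c+ and adherent values differed by -0.12 on the log2 scale, so the transcript of the sorting marker did not separate the fractions. The 4 marker genes of the fractions, chosen with earlier results of these arrays known, did differ. Ccr7 and Spib, the gene of an Ets-family transcription factor, were counted as higher in CD11c+ cells, and the granule protein genes Ngp (neutrophils) and Prg2 (eosinophils) as lower. In bulk RNA of this kind, fewer cells of a type and less RNA per cell cannot be told apart.

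Genes of mature, migrating dendritic cells were higher in the CD11c+ fraction. Of 29 measured members of that list, 14 were counted as higher, against 0.876% of the 11646 genes, and none as lower. At 2-fold 23 were higher and none lower, and the list's median difference was 1.96 beside 0.01 over all genes. This list and those below were chosen with earlier results of these data known, so their counts and medians only describe these arrays. Ccr7 had 7190.4 in CD11c+ cells, 1007 in adherent cells and 86.5 in M-CSF adherent cells, a log2 difference of 2.80. Fscn1, the gene of fascin, which bundles actin in the long extensions of mature dendritic cells, had 7967 in CD11c+ cells, 1648 in adherent cells and 177 in M-CSF adherent cells (difference 2.25). All 3 of its other probe sets also differed more than 4-fold, by 2.13 to 3.78. Ccl22, a chemokine gene that draws CCR4-bearing T cells, had 7244 in CD11c+ cells, 1661 in adherent cells and 41.9 in M-CSF adherent cells (2.10). Ccl5, a chemokine gene whose product draws T cells, had 5929 in CD11c+ cells, 886 in adherent cells and 190.5 in M-CSF adherent cells (2.70). For these 4 genes the CD11c+ array was the highest of the 3 culture arrays, the GM-CSF adherent array lay between, and the M-CSF array was the lowest. Serpinb6b, the gene of a serine protease inhibitor, had 3534 in CD11c+ cells, 485 in adherent cells and 1015 in M-CSF adherent cells (2.78). Cd83, a surface marker gene of mature dendritic cells that falls outside the naming rule and was chosen after its values were seen, had 4997 on the CD11c+ array and 1071 on the adherent array (2.19). The member with the lowest difference was Cd200, an inhibitory ligand gene, with 1042 on the CD11c+ array and 1704 on the adherent array (-0.69), under 2-fold and also chosen after its values were seen.

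Some of the ligands and receptors through which dendritic cells instruct T cells were higher as well. Of 15 measured genes of costimulation and co-inhibition, 4 were counted as higher, against 0.876% of the 11646 genes. At least 2-fold higher were 6, while 9 were under 2-fold and none was 2-fold lower (median 0.82). Tnfsf4, the gene of OX40 ligand, had 878 in CD11c+ cells, 77.8 in adherent cells and 18.1 in M-CSF adherent cells (3.05), and the gene of its receptor, Tnfrsf4, had 365 on the CD11c+ array and 38.9 on the adherent array (2.49). Pdcd1lg2, the gene of PD-L2, an inhibitory ligand of PD-1, had 1682 in CD11c+ cells, 186 in adherent cells and 13.9 in M-CSF adherent cells (2.98). Both activating and inhibitory ligand genes were therefore among those counted. Cd40, the receptor gene through which helper T cells license dendritic cells, had 317 in CD11c+ cells, 54.3 in adherent cells and 143 in M-CSF adherent cells, and at 2.02 lay just inside the 4-fold limit. Its other 2 probe sets differed by 2.31 and 1.77. Cd86, the gene of the CD28 ligand B7-2, had 1281 in CD11c+ cells, 488 in adherent cells and 129 in M-CSF adherent cells, and at 1.34 was at least 2-fold higher without being counted. Tnfrsf9, the gene of the receptor 4-1BB, had 3916 in CD11c+ cells, 327 in adherent cells and 1.0 in M-CSF adherent cells (3.46).

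Among 19 cytokine genes the fractions split in both directions, with 1 counted as higher, 3 at least 2-fold higher and 3 at least 2-fold lower (median 0.19). Over the 11646 genes those shares were 0.876%, 3.82% and 2.0%. Il12b encodes the p40 chain shared by interleukin-12 and interleukin-23, and had 2367 in CD11c+ cells, 229 in adherent cells and 37.1 in M-CSF adherent cells (3.20). Its other probe set had 823 in CD11c+ cells and 97.0 in adherent cells. The genes of the partner chains, chosen after their values were seen, were dim in both fractions. Il12a had 13.3 on the CD11c+ array and 14.7 on the adherent array, and Il23a had 11.4 on the CD11c+ array and 2.90 on the adherent array. Tnf, chosen likewise, was lower, with 49.6 on the CD11c+ array and 286 on the adherent array, and at -1.96 lay just outside the limit.

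Many NF-kB genes were higher. Of 17 measured members, 3 were counted as higher, against 0.876% of the 11646 genes. At least 2-fold higher were 9, and none was lower by 2-fold (median 1.02). The 3 counted were Traf1, Relb and Map3k14. Traf1, the gene of a signalling adaptor of TNF receptors, had 1904 in CD11c+ cells, 198 in adherent cells and 71.7 in M-CSF adherent cells (3.08). Its other probe set differed by 0.74, and with the mean of all probe sets Traf1 was at 1.91 and no longer counted. Relb had 2428 in CD11c+ cells, 351 in adherent cells and 169 in M-CSF adherent cells (2.68), and Map3k14, the gene of the kinase NIK that starts the non-canonical arm, had 655 in CD11c+ cells, 92.2 in adherent cells and 57.3 in M-CSF adherent cells (2.47). With the probe set brightest on the 3 culture arrays Map3k14 was at 1.76 and not counted. Nfkb2, which encodes p100 and lies outside the naming rule, had 925 on the CD11c+ array and 213 on the adherent array (1.97). Rela, the gene of the main canonical subunit, also chosen after its values were seen, had 2172 on the CD11c+ array and 1544 on the adherent array (0.48). The lists share members: Traf1 and Relb also count among the 14 of the mature dendritic cell list.

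**Figure D2:**
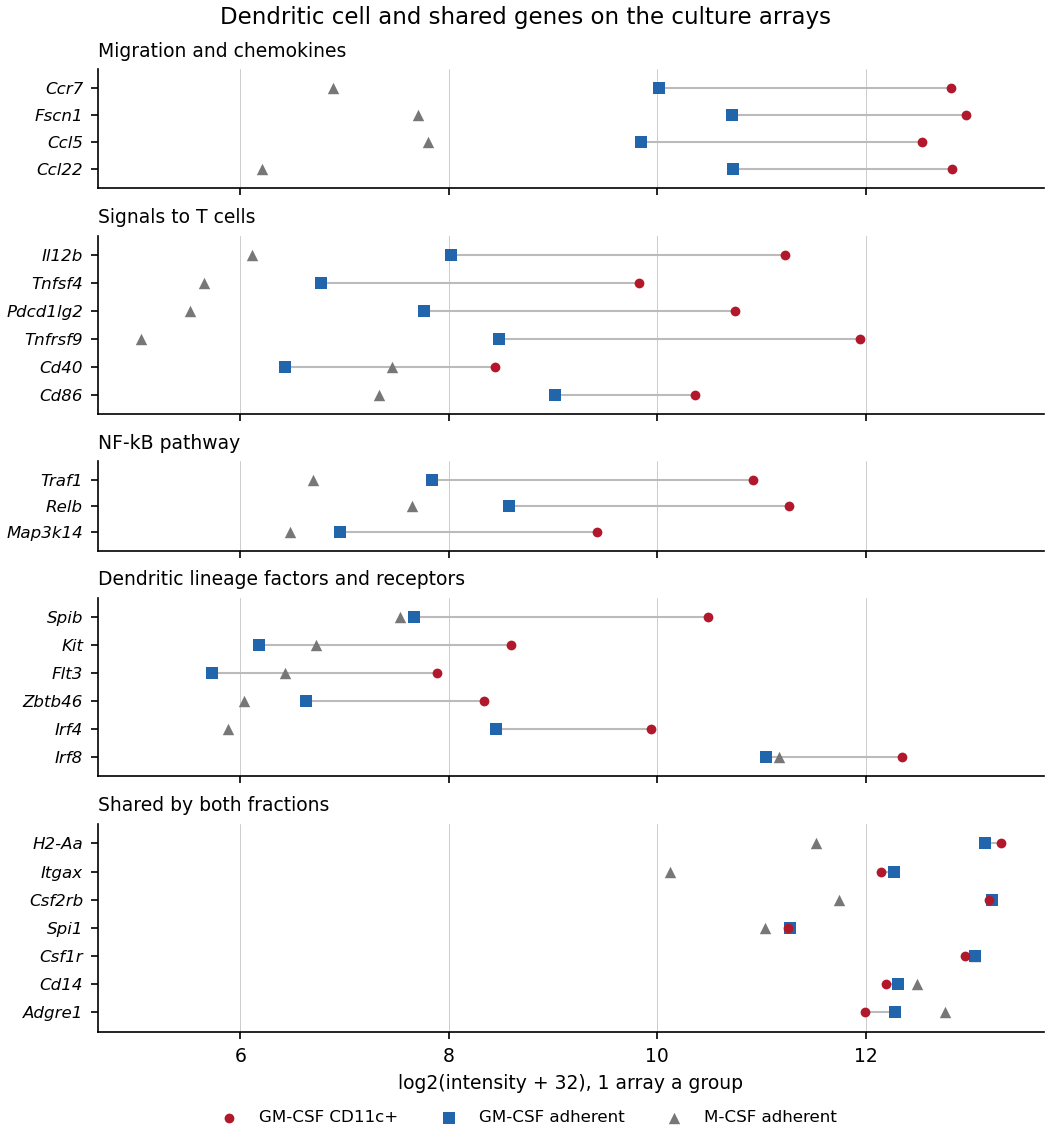
Dots give log2(intensity + 32) of 26 genes in GM-CSF CD11c+ (red circles), GM-CSF adherent (blue squares) and M-CSF adherent cells (grey triangles), 1 array each, with a grey line joining both GM-CSF fractions. Genes of migration, T cell signals, NF-kB and the dendritic lineage have the CD11c+ array on the right, while in the lowest panel, from H2-Aa to Adgre1, the circles and squares nearly coincide.

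Genes that set classical dendritic cells apart from macrophages were higher too. Of 23 measured members of a core list, 9 were counted as higher, against 0.876% of the 11646 genes. At least 2-fold higher were 14, and none was lower by that much (median 1.67). Spib had 1407 in CD11c+ cells, 171 in adherent cells and 153 in M-CSF adherent cells (2.83). Flt3, the receptor gene for the growth factor of the dendritic lineage, had 204 in CD11c+ cells, 21.0 in adherent cells and 54.2 in M-CSF adherent cells (2.16). Kit, the stem cell factor receptor gene, had 354 in CD11c+ cells, 40.7 in adherent cells and 73.6 in M-CSF adherent cells (2.41), although its second probe set, at 52.4 in CD11c+ cells and 30.1 in adherent cells, differed by 0.44 only. Zbtb46, the transcription factor gene that marks classical dendritic cells, had 293 in CD11c+ cells, 66.8 in adherent cells and 33.5 in M-CSF adherent cells, a difference of 1.72 that was not counted. Hmgn3, the gene of a nucleosome-binding protein, had 687 in CD11c+ cells, 75.6 in adherent cells and 401 in M-CSF adherent cells (2.74). Spint2, the gene of a membrane protease inhibitor, had 2225 in CD11c+ cells, 344 in adherent cells and 51.6 in M-CSF adherent cells (2.58). Haao, the gene of an enzyme of tryptophan breakdown, had 265 in CD11c+ cells, 20.4 in adherent cells and 1.21 in M-CSF adherent cells (2.50).

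The lists of dendritic cell subsets had medians near 0. Of 12 genes of the cDC1 subset none was counted and 2 were at least 2-fold higher (median 0.04). Of 14 genes of cDC2 and monocyte-derived dendritic cells none was counted and 3 were at least 2-fold higher (median 0.12). Of the 11646 genes, 0.876% were counted as higher, 3.82% were at least 2-fold higher and 2.0% at least 2-fold lower. Irf4, needed for cDC2, had 950.0 in CD11c+ cells, 319 in adherent cells and 27.0 in M-CSF adherent cells (1.49). Irf8, needed for cDC1, had 5181 in CD11c+ cells, 2075 in adherent cells and 2268 in M-CSF adherent cells (1.31). The cDC1 receptor gene Xcr1, chosen after its values were seen, had 1.0 on the CD11c+ array and 1.22 on the adherent array, near the bottom of the scale in both. Of 42 myeloid and dendritic transcription factor genes, 2 were counted as higher (Spib and Relb), 11 were at least 2-fold higher and 3 at least 2-fold lower, with a median of -0.07.

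Among the higher genes the largest difference was that of Ramp3, which encodes a partner protein of the calcitonin-family receptors. It had 2008 in CD11c+ cells, 82.2 in adherent cells and 16.5 in M-CSF adherent cells, a log2 difference of 4.16. Stat4, the transcription factor gene that relays interleukin-12 signals, had 2723 in CD11c+ cells, 159 in adherent cells and 83.6 in M-CSF adherent cells (3.85). Ceacam15, of the carcinoembryonic antigen family, had 3287 in CD11c+ cells, 201 in adherent cells and 6.03 in M-CSF adherent cells (3.83). Clu, the gene of the secreted chaperone clusterin, had 3366 in CD11c+ cells, 223 in adherent cells and 20.2 in M-CSF adherent cells (3.74), and its other 3 probe sets differed by 2.85 to 3.85. Ndnf, a gene of a secreted neurotrophic factor, had 812 in CD11c+ cells, 31.9 in adherent cells and 53.9 in M-CSF adherent cells (3.72), but its other probe set, below the median on both arrays, differed by 0.04, and the mean of both (1.88) was under 4-fold. On all 5, the CD11c+ value stood far above both adherent arrays, which were at or below 223. Aldh1a2, the gene of a retinal dehydrogenase by which some dendritic cells make retinoic acid, had 807 in CD11c+ cells, 65.9 in adherent cells and 12.6 in M-CSF adherent cells (3.10). Socs2, a feedback inhibitor gene of cytokine receptors, had 2497 in CD11c+ cells, 471 in adherent cells and 22.4 in M-CSF adherent cells (2.33), and Nr4a3, an orphan nuclear receptor gene, had 3005 in CD11c+ cells, 374 in adherent cells and 14.9 in M-CSF adherent cells (2.90). With the mean of all their probe sets neither was counted, Socs2 at 1.51 and Nr4a3 at 0.94. Klrk1, which encodes the activating receptor NKG2D, had 1091 on the CD11c+ array and 87.3 on the adherent array (3.23). Of 18 T and NK cell markers, 14 were below the array median on both arrays and none was counted. At 2-fold 1 was higher (Klrd1, 1.38) and 1 lower (Lat, -1.22), both named after their values were seen.

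The remaining named genes with large differences have varied roles. Grasp, the gene of a scaffold protein for receptors at membranes, had 1676 on the CD11c+ array and 127 on the adherent array (3.43). Slc27a3, of the fatty acid transport family, had 367 on the CD11c+ array and 7.77 on the adherent array (3.33), and Slc22a23, of the organic ion transporter family, had 310.2 on the CD11c+ array and 13.1 on the adherent array (2.93). Scin, the gene of the actin-severing protein scinderin, had 927 on the CD11c+ array and 74.8 on the adherent array (3.17). Net1, the gene of an exchange factor for RhoA, had 1721 on the CD11c+ array and 170.1 on the adherent array (3.12). Zmynd15 had 1045 on the CD11c+ array and 87.1 on the adherent array (3.18) and Strip2 had 601 on the CD11c+ array and 44.7 on the adherent array (3.04). Mx1, an interferon-induced GTPase gene, had 1908 in CD11c+ cells, 289 in adherent cells and 289 in M-CSF adherent cells (2.60). The interferon list that holds Mx1 was mixed. Of its 20 measured members 1 was counted as higher, 3 were at least 2-fold higher and 2 at least 2-fold lower. Over the 11646 genes these shares were 0.876%, 3.82% and 2.0%. The list's median was -0.53, while its summed intensities were 12209 in CD11c+ cells and 10147 in adherent cells. Car2, a carbonic anhydrase gene listed here with red cells and osteoclasts, had 1587 in CD11c+ cells, 250.4 in adherent cells and 144 in M-CSF adherent cells (2.52). It was the only member counted of 15 erythroid and megakaryocyte markers, whose median difference was -0.06. Adam19, the gene of a membrane metalloprotease, had 786 in CD11c+ cells, 127 in adherent cells and 214 in M-CSF adherent cells (2.36).

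Promoters of the counted genes were searched for the NF-kB consensus on both strands, in RefSeq windows of 300 bases on build GRCm38.p6 that run from 250 bases before a gene's start to 50 after it. Of 78 counted higher genes with such a window, 13 held a match (16.7%), against 2 of 22 counted lower genes (9.09%), 5.14% of all 27025 genes with a window and 4.51% of all 32851 windows. The same windows were searched for the C/EBP motif TTNNGNAA, since C/EBP factors act in granulocyte development. It was found in 14 of 22 counted lower genes (63.6%), in 27 of 78 counted higher genes (34.6%), in 44.1% of all genes and in 40.7% of all windows. Matches of both motifs overlapped in 56 windows (0.17%). A match is a description of the letters and not of binding, and a window without one says nothing about the factor.

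Windows of 4 of the 13 counted higher genes with an NF-kB consensus match are shown as examples, with the matches in capitals. Ceacam15 and Grasp also held a match and had larger differences than Pdcd1lg2 and Spib. Relb, Traf1, Map3k14 and Ccr7 were not among the 13, and not every counted gene had a window.
Ramp3 (chr11:6658283-6658582, plus strand): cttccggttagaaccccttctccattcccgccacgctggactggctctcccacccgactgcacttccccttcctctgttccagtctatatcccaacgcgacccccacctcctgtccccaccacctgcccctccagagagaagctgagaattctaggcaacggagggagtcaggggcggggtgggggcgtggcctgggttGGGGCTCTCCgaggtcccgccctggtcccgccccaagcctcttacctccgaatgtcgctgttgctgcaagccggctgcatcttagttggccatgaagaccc
Tnfrsf9 (chr4:150927749-150928048, plus strand): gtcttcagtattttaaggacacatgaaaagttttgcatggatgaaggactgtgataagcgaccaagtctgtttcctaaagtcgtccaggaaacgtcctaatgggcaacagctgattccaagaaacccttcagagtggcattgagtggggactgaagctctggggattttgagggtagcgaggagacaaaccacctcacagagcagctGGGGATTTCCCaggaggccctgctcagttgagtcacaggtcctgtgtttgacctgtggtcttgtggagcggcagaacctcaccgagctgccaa
Pdcd1lg2 (chr19:29410669-29410968, plus strand): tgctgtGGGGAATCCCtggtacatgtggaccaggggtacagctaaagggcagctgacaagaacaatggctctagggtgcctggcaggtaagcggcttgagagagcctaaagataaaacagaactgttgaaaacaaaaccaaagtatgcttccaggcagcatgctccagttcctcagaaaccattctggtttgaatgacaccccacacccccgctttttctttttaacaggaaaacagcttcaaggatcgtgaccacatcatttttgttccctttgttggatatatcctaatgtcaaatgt
Spib (chr7:44532022-44532321, minus strand): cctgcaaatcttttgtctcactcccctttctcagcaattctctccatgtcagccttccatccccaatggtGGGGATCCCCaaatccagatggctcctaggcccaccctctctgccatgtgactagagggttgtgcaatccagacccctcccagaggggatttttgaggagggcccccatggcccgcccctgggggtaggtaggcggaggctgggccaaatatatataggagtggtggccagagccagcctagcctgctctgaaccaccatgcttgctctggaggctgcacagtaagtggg
Each is written 5′ to 3′ along the gene. The match of Ramp3 began 51 bases before its start and that of Tnfrsf9, at the second of its starts, 43 bases before. Those of Spib and Pdcd1lg2 lay farther out, 180 and 244 bases before.

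For contrast, the windows of the granule genes Ngp and Ltf are shown with their C/EBP motif matches in capitals, written in the same way.
Ngp (chr9:110419558-110419857, plus strand): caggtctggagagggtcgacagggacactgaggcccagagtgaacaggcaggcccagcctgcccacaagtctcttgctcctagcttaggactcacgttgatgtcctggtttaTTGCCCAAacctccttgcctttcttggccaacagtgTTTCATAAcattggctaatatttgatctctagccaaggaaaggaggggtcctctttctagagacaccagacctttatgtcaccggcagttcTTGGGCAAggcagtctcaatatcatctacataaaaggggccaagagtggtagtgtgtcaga
Ltf (chr9:111019042-111019341, plus strand): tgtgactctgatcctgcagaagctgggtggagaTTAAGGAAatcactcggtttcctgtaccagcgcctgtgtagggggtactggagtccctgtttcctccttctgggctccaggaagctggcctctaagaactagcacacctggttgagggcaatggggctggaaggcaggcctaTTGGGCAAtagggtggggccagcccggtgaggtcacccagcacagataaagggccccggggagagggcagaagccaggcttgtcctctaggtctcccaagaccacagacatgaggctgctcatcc
The Ngp window held 3 matches and that of Ltf held 2.

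Much of the myeloid programme was alike in both fractions. Csf1r, the M-CSF receptor gene and a macrophage marker, had 7874 in CD11c+ cells, 8438 in adherent cells and 8426 in M-CSF adherent cells (-0.10). Only 0.295% of probe sets were brighter on the CD11c+ array and 0.202% on the adherent array, so its difference can be compressed. Adgre1, the gene of the macrophage antigen F4/80, had 4046 in CD11c+ cells, 4937 in adherent cells and 6889 in M-CSF adherent cells (-0.29), and Cd14, the endotoxin co-receptor gene, had 4661 in CD11c+ cells, 5041 in adherent cells and 5747 in M-CSF adherent cells (-0.11). The GM-CSF receptor chain genes Csf2ra and Csf2rb differed by -0.15 and -0.03. Spi1, the gene of the master myeloid factor PU.1, had 2416 on the CD11c+ array and 2444 on the adherent array (-0.02). Of 29 macrophage core genes, 1 was counted, as lower (Marco), against 0.258% of the 11646 genes. At 2-fold none was higher and 3 were lower, against 3.82% and 2.0%, with a median of -0.22. Intensities of the 29 genes summed to 79881 in CD11c+ cells, 91881 in adherent cells and 122940 in M-CSF adherent cells. None of 28 lysosome genes passed 2-fold in either direction (median -0.14). The medians of glycolysis and oxidative phosphorylation genes were also near 0.

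Genes of MHC class II, which presents antigen to helper T cells, were bright in both. H2-Aa had 10023 in CD11c+ cells, 9049 in adherent cells and 2919 in M-CSF adherent cells (0.15). Only 0.0511% of probe sets were brighter on the CD11c+ array and 0.138% on the adherent array, which is again near the top of the scale. Of 9 measured genes of the class II list none was counted (median 0.40). At least 2-fold higher in CD11c+ cells were 3, against 3.82% of the 11646 genes. These were named after their values were seen. Ciita, the master regulator of class II genes, had 466 on the CD11c+ array and 164 on the adherent array (1.35). H2-DMb2, a chain of the peptide editor H2-M, had 3102 on the CD11c+ array and 1166 on the adherent array (1.39). H2-Oa, a chain of its inhibitor, had 1643 on the CD11c+ array and 565 on the adherent array (1.49). H2-Eb2, a class II gene outside that list, was counted as higher and was also chosen after its values were seen. It had 378 on the CD11c+ array and 53.95 on the adherent array (2.25). Of 14 class I presentation genes 1 was at least 2-fold higher (median 0.03).

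**Figure D3:**
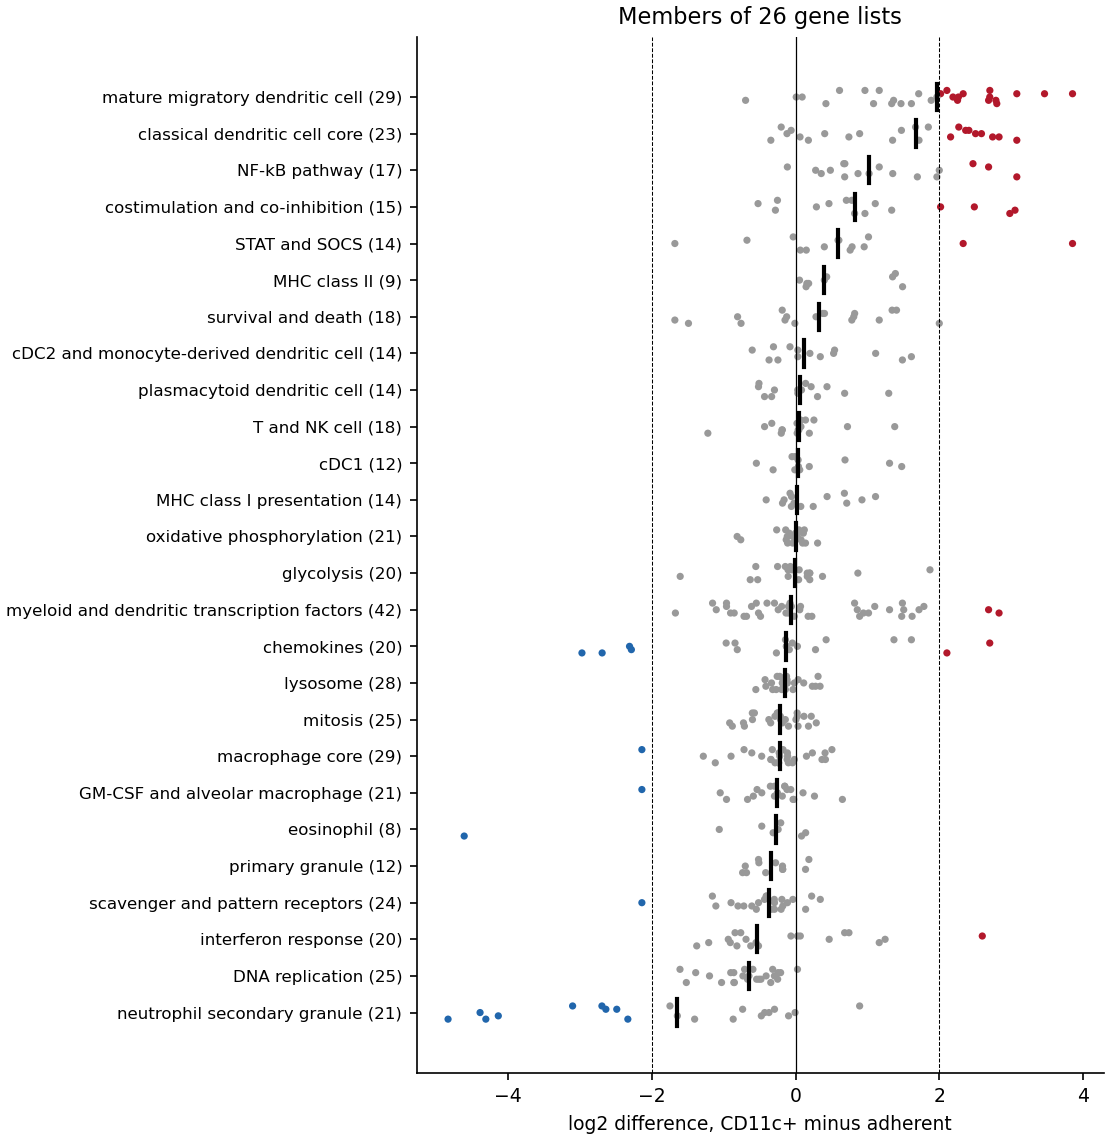
Each row is 1 of 26 gene lists with its number of measured genes, each dot is a member's log2 difference between CD11c+ and adherent cells (red at least 4-fold higher, blue at least 4-fold lower), and the black bar is the list's median. Medians run from 1.96 for mature migratory dendritic cell genes to -1.64 for neutrophil secondary granule genes, with most lists near 0; some genes stand in more than 1 row.

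Markers of neutrophils, granule genes among them, made up part of the lower side. Of 21 measured markers, 9 were counted as lower, against 0.258% of the 11646 genes. At least 2-fold lower were 12, and none was 2-fold higher (median -1.64). Ngp, the neutrophilic granule protein gene, had 123 in CD11c+ cells, 4379 in adherent cells and 2079 in M-CSF adherent cells (log2 difference -4.83), the largest in this direction. Ltf, the gene of the iron-binding protein lactoferrin, had 33.6 in CD11c+ cells, 1337 in adherent cells and 502 in M-CSF adherent cells (-4.38). Camp, the gene of the antimicrobial peptide cathelicidin, had 1.0 in CD11c+ cells, 546 in adherent cells and 160.2 in M-CSF adherent cells (-4.13). Lcn2, the gene of the siderophore-binding lipocalin, had 366 in CD11c+ cells, 2440.0 in adherent cells and 981 in M-CSF adherent cells (-2.64). For all 4 the CD11c+ array was the lowest of the 3 culture arrays, the M-CSF array lay between, and the GM-CSF adherent array was the highest. S100a8 and S100a9 encode the subunits of calprotectin. S100a9 had 334 in CD11c+ cells, 7189 in adherent cells and 3286 in M-CSF adherent cells (-4.30), and S100a8 had 808 in CD11c+ cells, 7155 in adherent cells and 3503 in M-CSF adherent cells (-3.10). Mmp9, the gelatinase B gene, had 28.0 in CD11c+ cells, 304 in adherent cells and 2115 in M-CSF adherent cells (-2.48), and here the M-CSF array was the highest. Cd177, a surface glycoprotein gene of neutrophils, had 9.90 in CD11c+ cells, 238 in adherent cells and 51.6 in M-CSF adherent cells (-2.69), and Olfm4, the gene of olfactomedin 4, had 4.65 in CD11c+ cells, 152 in adherent cells and 85.6 in M-CSF adherent cells (-2.33).

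Not every neutrophil marker was lower. Summed over the 21 markers, intensities came to 20164 in CD11c+ cells, 45462 in adherent cells and 25484 in M-CSF adherent cells. In CD11c+ cells 6 of them were below the array median, in adherent cells none. Mmp8, a neutrophil collagenase gene chosen after its values were seen, had 6157 on the CD11c+ array and 6181 on the adherent array (-0.01), and Csf3r, the G-CSF receptor gene chosen likewise, had 680.1 on the CD11c+ array and 958 on the adherent array (-0.47). Of 12 primary granule genes none passed 2-fold (median -0.35). Some counted markers were also bright on the 0 h monocyte array (median 80.5), S100a8 at 10660 and Cd177 at 6467, while Olfm4 had 42.9. The part of neutrophils in the other differences between the fractions was not tested.

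Prg2, the gene of the major basic protein of eosinophils, had 4.29 in CD11c+ cells, 850.5 in adherent cells and 79.7 in M-CSF adherent cells (-4.60). Of 8 eosinophil markers it was the 1 counted, and 2 were at least 2-fold lower (median -0.28). Of the 11646 genes, 0.258% were counted as lower and 2.0% were at least 2-fold lower. On the CD11c+ array 6 of the 8 were below the array median, and on the adherent array 4. Epx, the eosinophil peroxidase gene named after its values were seen, had 8.69 on the CD11c+ array and 52.8 on the adherent array (-1.06).

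Chemokine genes split in both directions. Of 20 listed, 2 (Ccl5 and Ccl22) were counted as higher and 4 as lower, against 0.876% and 0.258% of the 11646 genes. At 2-fold 4 were higher and 4 lower, and 12 were under 2-fold (median -0.13). The 4 counted as lower were Ccl2, Ccl7, Ccl3 and Ccl4. Ccl2, which draws monocytes through CCR2, had 208 in CD11c+ cells, 1841 in adherent cells and 5214 in M-CSF adherent cells (-2.97). Ccl7, a second CCR2 ligand gene, had 13.8 in CD11c+ cells, 263 in adherent cells and 2155 in M-CSF adherent cells (-2.69). Ccl3 and Ccl4 encode inflammatory chemokines. Ccl3 had 371 in CD11c+ cells, 1927 in adherent cells and 3641 in M-CSF adherent cells (-2.28), and Ccl4 had 168 in CD11c+ cells, 958 in adherent cells and 2626 in M-CSF adherent cells (-2.31). For all 4 the M-CSF adherent array was the highest of the 3, the GM-CSF adherent array lay between, and the CD11c+ array was the lowest. Cx3cl1, a chemokine gene outside that list and chosen after its values were seen, was counted as higher. It had 699 on the CD11c+ array and 77.3 on the adherent array (2.74), but its other probe sets differed by 0.33 to 0.71.

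**Figure D4:**
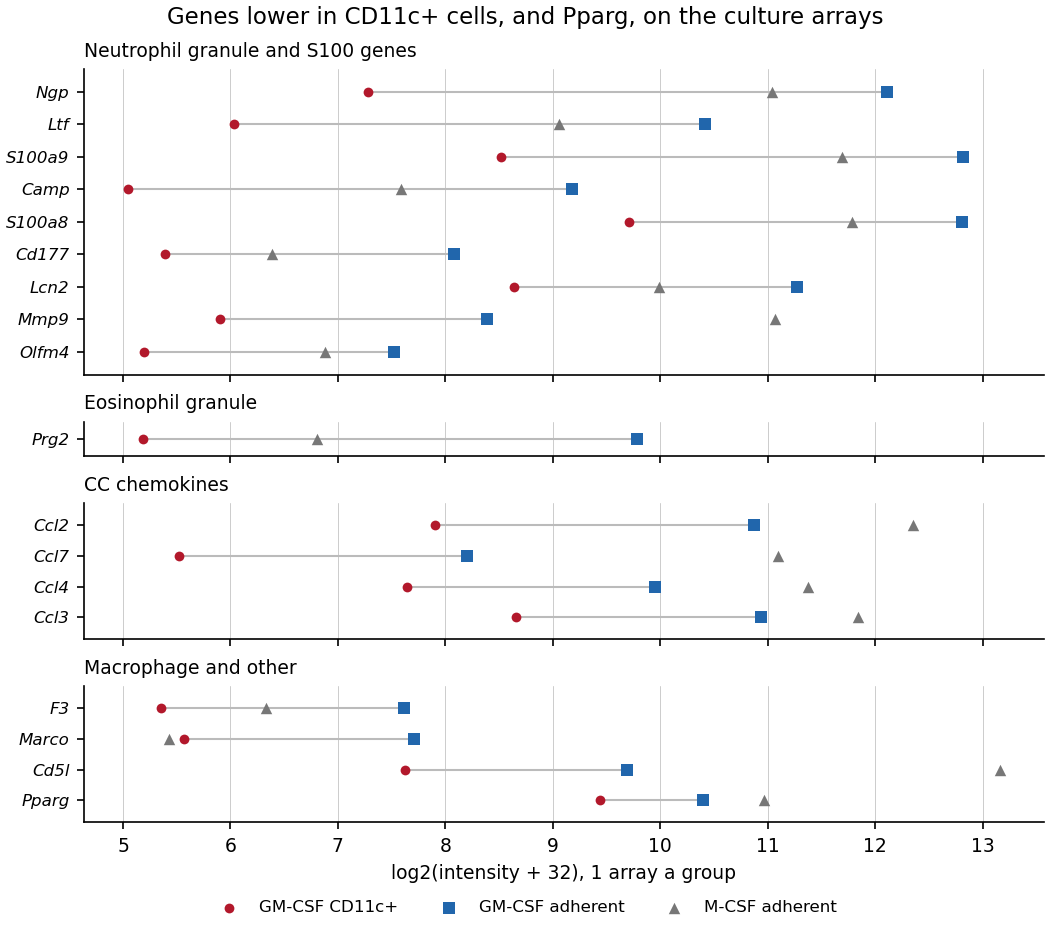
Dots give log2(intensity + 32) of 18 genes in GM-CSF CD11c+ (red circles), GM-CSF adherent (blue squares) and M-CSF adherent cells (grey triangles), 1 array each, with a grey line joining both GM-CSF fractions. The red circle is left of the blue square for each gene; the triangles lie right of the squares for the 4 chemokines, Mmp9, Cd5l and Pparg, and left of them for the rest.

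A few genes of macrophages and other roles were also lower. Marco, a scavenger receptor gene typical of alveolar macrophages, had 15.5 in CD11c+ cells, 177 in adherent cells and 11.1 in M-CSF adherent cells (-2.13). Cd5l, the gene of a secreted macrophage protein linked to lipid metabolism, had 165 in CD11c+ cells, 792 in adherent cells and 9143 in M-CSF adherent cells (-2.07). Pparg, the nuclear receptor gene needed for alveolar macrophages under GM-CSF, had 663 in CD11c+ cells, 1319 in adherent cells and 1973 in M-CSF adherent cells, and at -0.96 stayed under 2-fold. F3, the gene of tissue factor, which starts coagulation, had 8.80 in CD11c+ cells, 164 in adherent cells and 48.4 in M-CSF adherent cells (-2.26). Ptx3, the gene of a soluble pattern recognition protein, had 54.9 on the CD11c+ array and 417 on the adherent array (-2.37). Plac8, a gene of monocytes among other cells, had 43.6 on the CD11c+ array and 379 on the adherent array (-2.44). Stfa2l1, of the stefin A protease inhibitor family, had 30.2 on the CD11c+ array and 533 on the adherent array (-3.18). Its family has near-identical copies, so its signal can include theirs. Lrg1, the gene of a secreted leucine-rich glycoprotein of neutrophil granules, had 2.43 on the CD11c+ array and 143 on the adherent array (-2.34). Dot1l, the gene of the histone H3 lysine methyltransferase, had 30.8 on the CD11c+ array and 281 on the adherent array (-2.32).

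Genes of DNA replication were modestly lower. Of 25 measured members none was counted, and the median was -0.65. At least 2-fold lower were 5, against 2.0% of the 11646 genes, and none was 2-fold higher. Ccne2, the cyclin E2 gene that acts at entry into S phase, is no member of that list and had 53.6 in CD11c+ cells, 379.6 in adherent cells and 624 in M-CSF adherent cells (-2.27). The list's members with the largest differences were seen before they were named. Uhrf1, which maintains DNA methylation at replication forks, had 90.1 on the CD11c+ array and 339.6 on the adherent array (-1.61), and Mcm2, a subunit gene of the replicative helicase, had 113 on the CD11c+ array and 382 on the adherent array (-1.52). Mitosis genes were closer, with none of 25 passing 2-fold (median -0.21).

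Markers of other cells that such a culture could hold gave few counted genes. Over the 11646 genes the 2-fold shares were 3.82% higher and 2.0% lower. Of 17 mast cell and basophil markers, 10 were below the array median on both arrays and 1, Kit, was counted as higher. Of 14 plasmacytoid dendritic cell markers 1 was at least 2-fold higher (median 0.06), and of 14 B cell markers none passed 2-fold (median -0.11). Of 16 monocyte markers 2, Cd177 and Plac8, were counted as lower, against 0.258% of the 11646 genes, and 3 were at least 2-fold lower (median -0.26). Of 13 osteoclast markers Car2 was counted as higher and Mmp9 as lower, and 3 were at least 2-fold lower (median -0.25). Of 9 Langerhans cell markers 1 was at least 2-fold higher (median 0.18), and of 23 stromal and endothelial markers 1 was, with 14 below the median on both arrays (median 0.01). Summed intensities were 8195 in CD11c+ cells and 6583 in adherent cells for the Langerhans list. For the plasmacytoid list they were 3769 in CD11c+ cells and 3224 in adherent cells.

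Other probe sets of the counted genes differed in the same direction for the most part. Of 102 counted higher genes, 54 had other single-gene probe sets, 100 in all. Of these 70 had a higher value above the array median, 49 were at least 2-fold higher and 30 at least 4-fold higher, and none was 2-fold lower. The sign was opposite in 17 of the 100, 3 of them above the median, and the farthest of these 3 was a probe set of Slc4a8 (-0.36). Of 30 counted lower genes, 8 had 9 others, of which 6 were above the median and 5 at least 2-fold lower, with none 2-fold higher. With the mean of all probe sets of a gene, 8 counted named genes came under 4-fold: Ndnf, Traf1, Nr4a3, Socs2, Kit (1.43), Ptx3 (-1.19), Dot1l (-1.27) and Marco (-1.28). At the limit for higher genes, Insl6 (2.01), Cd40 (2.02) and Castor2 (2.02) were just inside, and Birc2 (1.998), Cblb (1.97) and Cnn2 (1.97) just outside. For lower genes, Plk3 (-2.01), Zranb3 (-2.01) and Ceacam10 (-2.03) were just inside, and Hivep3 (-1.98), Tnf (-1.96) and Hip1 (-1.95) just outside.

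The monocyte arrays give the counted genes in separate samples under GM-CSF. Their scale differs from that of the culture arrays (medians 77.7 to 80.5), so levels were compared only among them. Of the 102 counted higher genes, 44 were at least 4-fold higher at 48 h than at 0 h (43.1%, against 4.22% of all 11646 genes), and 2 were at least 4-fold lower (1.96%, against 2.34%). Their median difference between 48 h and 0 h was 1.27, beside 0.04 over the 11646 genes. At 24 h it was 0.22. Fscn1 had 9.51 at 0 h, 758 at 24 h and 10480.3 at 48 h. Ccl22 had 33.4, 2080.2 and 13548 at those times. Ccr7 had 16.9, 121 and 2977, so its larger step came after 24 h. Tnfrsf9 had 33.4, 167 and 3786, a like course. Traf1 and Pdcd1lg2 were already high at 24 h. Traf1 had 53.7, 1775 and 3393, and Pdcd1lg2 had 29.7, 3039.5 and 5843. Ramp3 had 5.16, 253 and 1876.

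Several counted higher genes did not take that course. Spib had 98.0 at 0 h, 50.7 at 24 h and 91.1 at 48 h. Il12b stayed dim, with 37.6, 78.0 and 89.3. Flt3 was lower at the end, with 297, 32.9 and 70.5. Itgax, which did not separate the culture fractions, had 59.3, 12043 and 12541 (48 h minus 0 h, 7.11). Of the 30 counted lower genes, 4 were at least 4-fold higher at 48 h (13.3%, against 4.22% of all 11646 genes). At least 4-fold lower were 7 (23.3%, against 2.34%), so both shares were above those of all genes. S100a8 had 10660.1, 1086 and 1465, and Cd177 had 6467, 123 and 35.3. Ngp, with 890.4, 603 and 967, differed by 0.11 between 48 h and 0 h. These are 1 array a time point, with no test.

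Bone marrow pre-cDC against CDP is the step of the dendritic lineage for which the series has replicates. It was tested with limma over all 18193 genes. Of the 102 counted higher genes, 25 rose in pre-cDC (24.5%, against 20.2% of the 11646 genes) and 17 fell (16.7%, against 26.7%). Of the 30 counted lower genes, 4 rose (13.3%) and 6 fell (20.0%). The differences between these shares and those of all genes were not tested. Of the counted genes, 38 of 102 higher and 15 of 30 lower ones were below the array median on all 4 arrays, against 14.1% of the 11646 genes. Single genes moved in both directions. Spib had 1524 and 1573 in pre-cDC and 31.3 and 29.5 in CDP (log2 difference 4.66, SE 0.0972, limma adjusted p = 6.02e-12). Cd40 had 54.3 and 67.1 in pre-cDC and 9.64 and 12.4 in CDP (1.10, SE 0.0911, limma adjusted p = 8.47e-07). Adam19 had 169.6 and 189.7 in pre-cDC and 17.1 and 13.8 in CDP (2.16, SE 0.0956, limma adjusted p = 3.42e-09). These 3 genes rose, and the pre-cDC and CDP arrays did not overlap. Ccr7 fell, with 5.65 and 6.38 in pre-cDC and 49.98 and 41.2 in CDP (-1.03, SE 0.0768, limma adjusted p = 3.52e-07). Kit also fell, with 36.3 and 36.8 in pre-cDC and 368 and 335 in CDP (-2.48, SE 0.11, limma adjusted p = 3.42e-09). Ccl22 and Fscn1 were dim in both groups, at 15.6 or below on all 4 arrays. Nothing in the labels says that the 2 arrays of a group came from separate animals, so these p-values measure the spread between these arrays only.

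**Figure D5:**
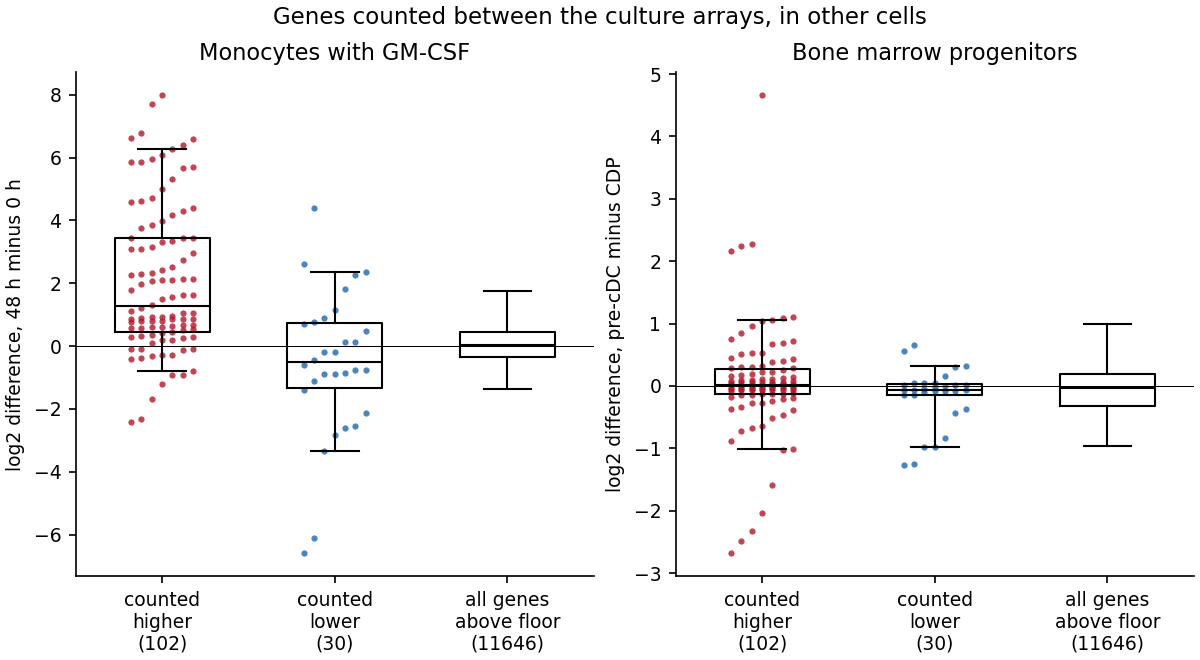
Log2 differences of the 102 counted higher genes (red), the 30 counted lower genes (blue) and all 11646 genes above the floor, for monocytes at 48 h minus 0 h (left, 1 array each) and for pre-cDC minus CDP (right, 2 arrays each); boxes show the quartiles with the median line, whiskers run to the 5th and 95th percentiles, and dots are single genes. In monocytes the red genes have a median of 1.27 and the blue ones of -0.52, while in pre-cDC against CDP both medians lie near 0 (0.01 and -0.06).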

How the data were processed

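RNA was labelled with an Affymetrix 3' IVT kit and hybridised to 1-colour arrays, per the labels' protocols. The authors deposited 1 linear intensity per probe set and array for 15 arrays; background correction, probe summary and scaling are not given in the sources used here. Of the probe sets, 932 had several gene symbols and 9160 none and were left out of the gene comparisons; 18031 of 18193 genes were matched to the reference by gene ID. Lists held 794 symbols, of which 719 were in the table; the others were not analysed here. Members and lists were chosen with earlier results of these data known. Named genes are the 20 largest counted differences in each direction, up to 5 counted members of each list, the markers and a fixed panel; unnamed gene models were passed over. Values were computed with Python 3.11.15, pandas 2.3.3 and numpy 2.4.6, as log2(intensity + 32). Pre-cDC and CDP were compared with limma 3.58.1 in R 4.3.3 (trended eBayes, Benjamini-Hochberg over all genes, threshold 0.05), with the 8 arrays of 4 progenitor groups sharing 1 spread. Both steps were tested on simulated data, which tells nothing about the spread between GM-CSF cultures. The number of arrays, 1 a side for the cultures, limits the precision. Promoter windows came from RefSeq (GRCm38.p6). Alternatives covered the pseudocount (16 and 64), scaling, probe set choice, the floor, and for limma the trend, the filter, the replicate block and single arrays left out.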

Additional observations from a re-analysis of the deposited data

Results flagged for a closer look

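The probe sets that were annotated with no gene or with several (10092 in all) were not used in the comparison of genes. They too differed between the fractions. By the same rule 9 of them were at least 4-fold higher in CD11c+ cells and 5 at least 4-fold lower, with the largest differences at 4.29 and -3.71. Between the 2 arrays of each progenitor group, which had a lower scale, 0 of them passed. They are not named here.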

How the results depend on the processing

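The count of higher genes ran from 69 (pseudocount of 64) to 128 (pseudocount of 16) over 8 alternatives. The count of lower genes was 15 with a pseudocount of 64 and otherwise 22 to 41. Of 450 recomputed differences of named genes, 27 moved by 1.5-fold or more and 0 counted ones changed sign. With a pseudocount of 64, 12 counted named genes came under 4-fold: Mmp9, Lrg1, Olfm4, Dot1l, Ccne2, Haao, Cd40, Marco, F3, Cd5l, Kit and Flt3. The mean of all probe sets took 8 under it, the probe set brightest in the cultures 1 (Map3k14) and scaling to the same median 1 (Cd40). None of 270 recomputed list medians moved by that much, and the median over all genes shifted by at most 0.02. Counted lower genes that were higher in monocytes at 48 h numbered 2 with a pseudocount of 64, an alternative chosen after seeing the data. In pre-cDC against CDP, 2 counted lower genes rose under the low-value filter. Leaving out 1 array of either group gave 21 to 26 counted higher genes that rose, 14 to 16 that fell, and 2 to 4 counted lower genes that rose and 4 to 6 that fell. The lowest count of lower genes that rose came without the second pre-cDC array. The replicate numbers do not pair the samples (correlations of same-numbered deviations from -0.022 to 0.181). With the replicate block the 4 counts were 28, 16, 4 and 7. The causes of these shifts were not tested. Genes near 32 on both arrays cannot reach 4-fold, and 1 array a side gives no error for any culture difference.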
